A study of Mus musculus with 24 samples.

Results

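The 4 chemokine genes Ccl3, Ccl4, Ccl5 and Xcl1 were followed through single NK1.1+CD3e+ cells of mouse liver. They were chosen by symbol, as the 4 rows of the count matrix with these names among 24447 genes, and every deposited cell was used. Livers of C57BL/6 mice of 3 genotypes were compared, and no group received a treatment according to the labels. WT mice carried no deletion. Jα18-/- mice lack the joining segment used by the invariant T cell receptor of type I natural killer T (NKT) cells, so that type II NKT cells and other NK1.1+ T cells remain. CD1d-/- mice lack the molecule that presents lipids to both kinds of NKT cell, so that the sorted cells of these mice are NK1.1+ T cells that did not need CD1d. The paper gives limits of both lines. CD1d2 was not deleted in its CD1d-/- mice. The original Jα18-/- mice lost several Jα elements, and Jα18-/- mice also lack MAIT cells, a semi-invariant T cell subset. The labels gave 8 libraries per genotype, but the cell names carry the genotype and no library or mouse. Each genotype was therefore 1 pool of cells without replicates: 623 WT cells with 34102694 unique molecular identifiers (UMIs, 1 per captured transcript), 725 Jα18-/- cells with 60484252 UMIs, and 387 CD1d-/- cells with 14536585 UMIs. The median cell held 40467, 46670 and 13508 UMIs in the 3 pools, in that order.

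Chemokines are small secreted proteins that draw leukocytes towards their source through G protein-coupled receptors. Ccl3 (MIP-1α), Ccl4 (MIP-1β) and Ccl5 (RANTES) are CC chemokines. Ccl3 and Ccl5 bind Ccr1, and Ccl5 also binds Ccr3. Xcl1 (lymphotactin) is the C chemokine of the mouse and binds Xcr1, the receptor of cross-presenting dendritic cells. NK cells and CD8 T cells are known for making all 4, and memory-type cells keep Ccl5 transcripts before any new stimulus.

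The genes lie at 2 places in the genome (build NCBIM37, also called mm9, GENCODE vM1 annotation), and each has 3 exons. Ccl3 (ENSMUSG00000000982, chr11:83461346-83462857, minus strand) and Ccl4 (ENSMUSG00000018930, chr11:83476086-83478185, plus strand) are separated by 13228 bases. Ccl5 (ENSMUSG00000035042, chr11:83339280-83344020, minus strand) lies 117325 bases from Ccl3. Xcl1 (ENSMUSG00000026573, chr1:166861775-166865658, minus strand) is on another chromosome. The stretch of coding sequence around the first cysteines of the mature chemokine is shown because it defines both families: CC chemokines have 2 neighbouring cysteines there and Xcl1 has 1. The lines give 66 coding bases of each gene, 5′ to 3′, from the GENCODE vM1 transcripts, with cysteine codons in capitals.

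Ccl3: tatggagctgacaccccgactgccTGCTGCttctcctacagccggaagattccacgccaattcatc
Ccl4: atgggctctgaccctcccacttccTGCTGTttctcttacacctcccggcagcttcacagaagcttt
Ccl5: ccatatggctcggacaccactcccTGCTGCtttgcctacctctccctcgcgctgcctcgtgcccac
Xcl1: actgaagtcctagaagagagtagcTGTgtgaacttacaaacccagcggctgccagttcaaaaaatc

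The coding sequences of Ccl3 and Ccl4 shared 70.0% of their bases, yet the longest run of identical bases in their whole transcripts was 9, and it was 13 or less for every pair of the 4 genes. A sequenced fragment much longer than that belonged to 1 of the genes only.

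The order of the 4 genes was the same in every pool: Ccl5 was the most abundant, then Xcl1, Ccl4 and Ccl3. Each of the 4 stood lowest in the WT pool, higher in the Jα18-/- pool and highest in the CD1d-/- pool. These levels (CPM) are the UMIs of a gene per 1000000 UMIs of the pool,, with exact Poisson 95% intervals that cover counting error only. With 1 pool per genotype no test between genotypes was possible, and the intervals say nothing about differences between mice.

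Ccl5 had 4654 CPM in the WT pool (4632 to 4677), 9742 in the Jα18-/- pool (9717 to 9767) and 19284 in the CD1d-/- pool (19213 to 19356). It was the gene with rank 21, 7 and 5 of the whole matrix in these pools, and made up 0.465%, 0.974% and 1.93% of all UMIs. Xcl1 had 642 CPM (634 to 651), 877 (870.0 to 885) and 1273 (1255 to 1292), which gave it rank 215, 164 and 114. Both genes were thus among the abundant transcripts of these cells in all 3 genotypes.

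Ccl4 had 87.7 CPM in the WT pool (84.6 to 90.9), 168 in the Jα18-/- pool (165 to 172) and 457 in the CD1d-/- pool (446 to 468). Ccl3 had 24.3 CPM (22.6 to 26.0), 61.3 (59.3 to 63.3) and 127 (121 to 133). Their ranks ran from 1743 to 302 for Ccl4 and from 4543 to 1278 for Ccl3.

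Against the WT pool, the Jα18-/- pool stood 2.53-fold higher for Ccl3, 1.92-fold for Ccl4, 2.09-fold for Ccl5 and 1.37-fold for Xcl1. The CD1d-/- pool stood 5.22-fold, 5.20-fold, 4.14-fold and 1.98-fold above the WT pool for the same genes. Of all genes with at least 100 UMIs in the pools compared, 14% were at least 2-fold higher in the Jα18-/- pool than in the WT pool (1442 of 10267), and 12.2% in the CD1d-/- pool (1148 of 9447). By that measure 2 of the 4 chemokines were past 2-fold in the Jα18-/- pool and 3 of the 4 in the CD1d-/- pool, where Xcl1 lay just below.

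The CD1d-/- pool also differed in other respects. Lyz2, a lysozyme of myeloid cells, stood at 588 CPM there against 77.3 in the WT and 14.7 in the Jα18-/- pool. The summed level of the 10 myeloid markers was 274, 219 and 805 CPM in the WT, Jα18-/- and CD1d-/- pools, and most of the last value was Lyz2. Cst3 stood at 186, 194 and 190 CPM. Csf1r, Cd68, Adgre1 and C1qa were also highest in the CD1d-/- pool, at 9.15, 13.3, 1.72 and 0.757 CPM. C1qb, Clec4f and S100a8 were not, at 1.44, 0.206 and 0.0688 CPM there. S100a9 was at 0 in all 3 pools, and Lyz2 was found in 80.4% of CD1d-/- cells against 39.5% and 30.9%. Lyz2 alone had at least 2 UMIs and 100 CPM in 23.3% of WT, 3.59% of Jα18-/- and 65.1% of CD1d-/- cells. Without the cells that held at least 2 UMIs and 100 CPM of the myeloid markers other than Cst3 (155, 43 and 268 cells), Ccl3 was at 28.8, 61.4 and 84.2 CPM and Ccl4 at 110, 166 and 343 CPM. The log2 ratio of the CD1d-/- to the WT pool was then 1.55 in place of 2.38 for Ccl3 and 1.64 in place of 2.38 for Ccl4. For Ccl5 it was 2.33 in place of 2.05, and for Xcl1 1.34 in place of 0.99. The part of these transcripts in the members' levels was not tested beyond this. The identity of the sorted cells was checked with T cell and sort markers. Cd3e, which encodes the CD3e of the sort, was found in 89.6%, 96.7% and 74.9% of cells, lowest in the CD1d-/- pool. Cd3d was found in 98.4%, 99.3% and 96.9% of cells and Klrb1c, which encodes NK1.1, in 92.3%, 95.6% and 92.0%. Cd1d1, which encodes CD1d, was counted in 72 WT cells and 102 Jα18-/- cells and in 0 of 387 CD1d-/- cells, which allows a share of up to 0.775% of cells with a UMI at the lower depth of these cells and sets no limit on cells that express the gene. The segment deleted in Jα18-/- mice was not analysed here.

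The 4 genes fell into 2 kinds by how their UMIs were spread over cells. Ccl5 and Xcl1 were found in most cells, whereas the UMIs of Ccl3 and Ccl4 came from a small number of cells with many UMIs each. In the plot of single cells both patterns are visible in each genotype.

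**Figure D1:**
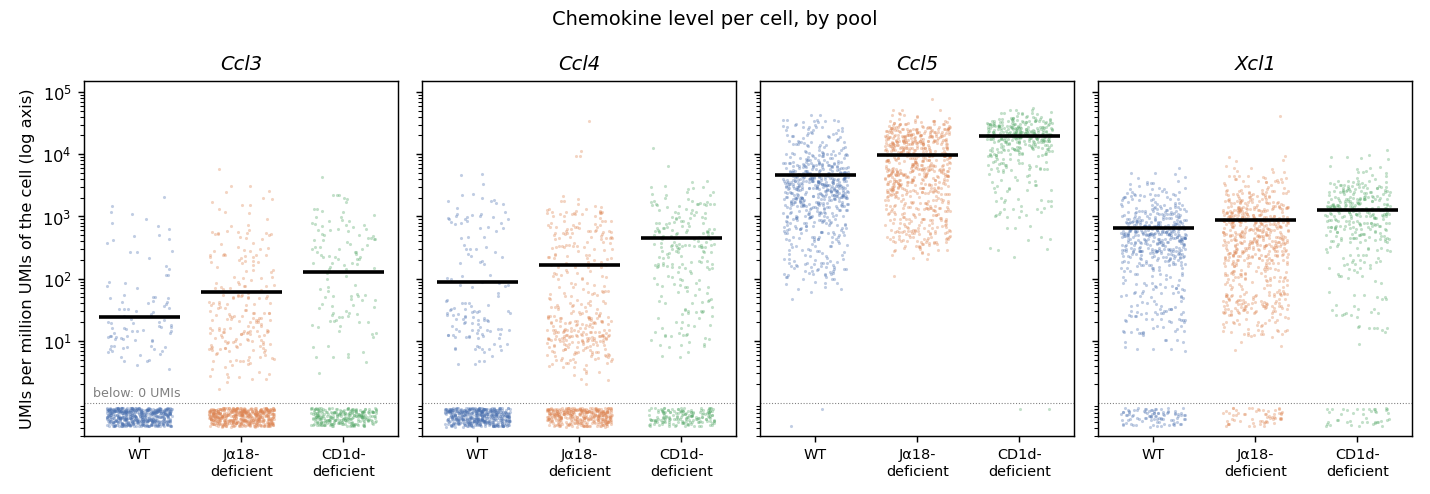
Level of each chemokine in single cells (vertical log axis, CPM, UMIs of the gene relative to all UMIs of the cell) of the WT, Jα18-/- and CD1d-/- pools, with 1 point per cell and a black bar at the level of the summed pool. Points below the dotted line are cells with 0 UMIs, set apart at an arbitrary height and spread to be visible; Ccl5 has 2, 0 and 2 such cells, while most cells of every pool have 0 UMIs of Ccl3.

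At least 1 UMI of Ccl5 was found in 99.7% of WT cells (98.8 to 99.96, exact Clopper-Pearson 95% interval), 100% of Jα18-/- cells (99.5 to 100) and 99.5% of CD1d-/- cells (98.1 to 99.9). The difference between genotypes therefore lay in the amount per cell: the median cell held 2687, 5855 and 18585 CPM of Ccl5. In the WT pool 10% of cells were above 11136 CPM, a level below the median of the CD1d-/- cells. In the Jα18-/- pool the middle range of cells was wide, with a lower quartile of 1918 and an upper quartile of 15276 CPM.

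Xcl1 was found in 84.8% of WT cells (81.7 to 87.5), 91.7% of Jα18-/- cells (89.5 to 93.6) and 89.1% of CD1d-/- cells (85.6 to 92.1). The median cell held 342, 353 and 948 CPM, so the WT and Jα18-/- medians were near each other although the pooled level differed 1.37-fold. One Jα18-/- cell held 7.12% of that pool's Xcl1 UMIs. A level of at least 1000 CPM, with 2 UMIs or more, was reached by 15.4% of WT cells, 23.7% of Jα18-/- cells and 48.6% of CD1d-/- cells.

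Ccl4 was found in 21.99% of WT cells (18.8 to 25.5), 49.7% of Jα18-/- cells (46.0 to 53.4) and 56.1% of CD1d-/- cells (51.0 to 61.1). Many of these cells had a single UMI: 73 of 137, 144 of 360 and 51 of 217. A level of at least 100 CPM with 2 UMIs or more was reached by 46, 116 and 136 cells, and these cells held 96.0%, 95.6% and 97.4% of all Ccl4 UMIs. Among them the median level was 836, 553 and 594 CPM, so that the pools differed mainly in how many cells were high: 7.38%, 16.0% and 35.1% of cells.

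Ccl3 was found in 15.1% of WT cells (12.4 to 18.1), 29.9% of Jα18-/- cells (26.6 to 33.4) and 30.2% of CD1d-/- cells (25.7 to 35.1), with 1 UMI in 65 of 94, 108 of 217 and 45 of 117 of them. Cells with at least 100 CPM and 2 UMIs numbered 17, 54 and 56, which is 2.73%, 7.45% and 14.5% of the pools. Their median level was 431, 488 and 509 CPM, and they held 88.5%, 93.0% and 94.5% of all Ccl3 UMIs. As for Ccl4, the pools differed more in the share of high cells than in the level within them.

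Shares of cells with a UMI depend on depth, and the CD1d-/- cells were the shallowest. When each cell was thinned to 10000 UMIs, which left 523, 632 and 227 cells and left out 353 shallower ones, Ccl4 was found in 12.05% of WT cells (9.38 to 15.1), 22.8% of Jα18-/- cells (19.6 to 26.3) and 49.3% of CD1d-/- cells (42.7 to 56.0). Ccl3 was then found in 6.50% (4.54 to 8.97), 13.8% (11.2 to 16.7) and 19.8% (14.8 to 25.6). At equal depth the 3 pools thus followed the order of the summed levels for both genes. Xcl1 was found in 75.5%, 74.4% and 88.1% of thinned cells, and the WT and Jα18-/- pools were within counting error of each other. No cell type that should lack these genes was sorted, so the share that free RNA or carry-over could give was not measured, and single-UMI cells are not read as expressing Ccl3 or Ccl4.

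**Figure D2:**
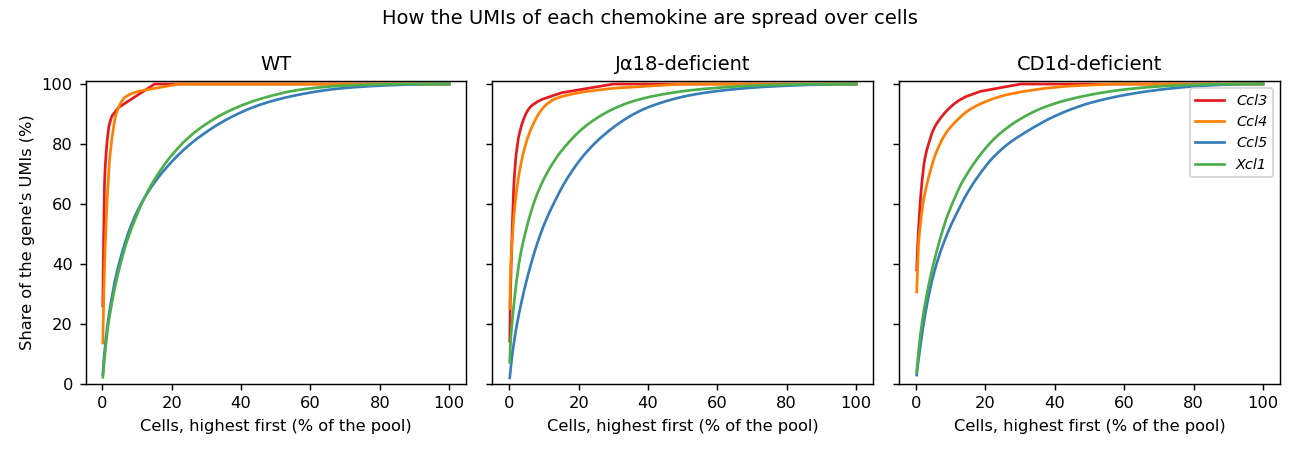
Share of each chemokine's UMIs (vertical axis, percent of the pool's UMIs of the gene) held by the cells with the most UMIs (horizontal axis, cells ranked from the highest, as percent of the cells of the pool), with 1 panel per pool and 1 line per gene. The 10 highest cells held 83.1%, 67.8% and 74.9% of Ccl3 UMIs in the WT, Jα18-/- and CD1d-/- pools but 20.4%, 14.03% and 22.4% of Ccl5 UMIs.

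The plot of UMI concentration shows how few cells set the pooled level. Deep cells weigh more in it, since cells held 789 to 598221 UMIs, and the concentration of all UMIs was not computed. The fewest cells that together held 50% of the UMIs were 3, 6 and 3 for Ccl3 and 7, 8 and 4 for Ccl4, against 47, 66 and 35 for Ccl5 and 49, 33 and 29 for Xcl1. A single cell of the CD1d-/- pool held 699 of the pool's 1841 Ccl3 UMIs (38.0%) and the same cell held 2033 of its 6636 Ccl4 UMIs (30.6%). Without the highest cell of each pool the log2 ratio of the CD1d-/- to the WT pool was 2.14 for Ccl3 and 2.08 for Ccl4, in place of 2.38 for both.

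Cells were next grouped by transcripts other than the 4 genes. The 4 genes had been chosen with earlier results on such cells known, so the gates are no independent check of that choice. A cell was called positive for Cd8a, the CD8 coreceptor chain, or for Ly49, the summed counts of 9 Klra genes for inhibitory and activating NK receptors, when it had at least 2 UMIs and 100 CPM. Cells positive for both made up 4.65% of the WT pool (29 cells), 12.6% of the Jα18-/- pool (91 cells) and 30.7% of the CD1d-/- pool (119 cells). Cells negative for both numbered 498, 290 and 88, cells with Ly49 only 93, 327 and 157, and cells with Cd8a only 3, 17 and 23. Near the edge of a gate, at 50 to 200 CPM of Cd8a or Ly49, lay 6.58%, 26.6% and 15.8% of cells.

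In the double-positive cells all 4 chemokines were at their highest or near it. Ccl3 stood at 142, 187 and 305 CPM in double-positive cells of the WT, Jα18-/- and CD1d-/- pools, against 6.56, 3.18 and 7.60 CPM in double-negative cells. Ccl4 stood at 1161, 517 and 888 CPM against 9.74, 18.2 and 181 CPM. Single cells carried much of these levels: 1 cell held 61.6% of the Ccl3 UMIs of WT double-positive cells, 1 cell 49.96% of the Ccl3 UMIs and 49.9% of the Ccl4 UMIs of CD1d-/- double-positive cells, and 1 cell 82.9% of the Ccl4 UMIs of CD1d-/- double-negative cells. Without the highest cell of each gate and pool, Ccl3 stood at 62.4, 147 and 158 CPM in double-positive and 3.28, 3.07 and 5.50 CPM in double-negative cells. Ccl4 then stood at 953, 402 and 461 CPM against 8.05, 15.2 and 31.7 CPM.

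Ccl5 stood at 20908, 19812 and 21789 CPM in double-positive cells and at 2973, 5206 and 10121 CPM in double-negative cells. Xcl1 stood at 1858, 1900 and 1467 CPM against 505, 484 and 692 CPM. Both genes were thus found in either gate, at a higher level in the double-positive cells.

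**Figure D3:**
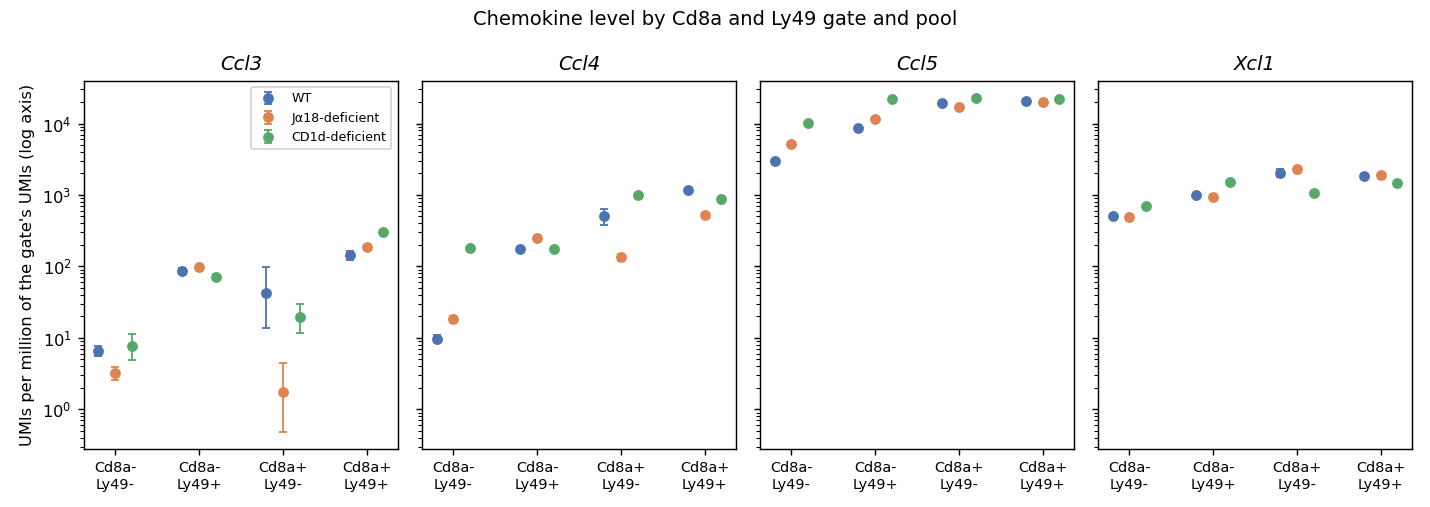
Level of each chemokine in 4 gates of cells (horizontal axis) defined by Cd8a and Ly49 transcripts (vertical log axis, CPM, UMIs of the gene relative to all UMIs of the gate), with 1 point per pool and exact Poisson 95% intervals as bars, which are often smaller than the points. Ccl5 is at 19812 to 21789 CPM in the double-positive cells of the 3 pools and at 2973 to 10121 CPM in the double-negative cells.

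The gates were compared by edgeR's quasi-likelihood test on UMIs summed per pool and gate, with the 3 pools as replicates and Benjamini-Hochberg adjustment over 9684 genes. The test is of 1 gate difference shared by the pools, so a call does not require that difference in each genotype. In double-positive over double-negative cells all 4 genes were higher. The log2 fold change (± SE, n = 3 pools) in this edgeR fit was 5.33 ± 0.88 for Ccl3 (adjusted p = 0.0077), 4.50 ± 0.77 for Ccl4 (adjusted p = 0.0097), 2.02 ± 0.21 for Ccl5 (adjusted p = 3.8e-05) and 1.70 ± 0.30 for Xcl1 (adjusted p = 0.013). Each edgeR SE was derived from the F statistic of the test and is not the SE of 3 pool values. By pool the Ccl4 log2 ratio was 6.90 in WT, 4.83 in Jα18-/- and 2.30 in CD1d-/- cells. Over all genes tested, 0.217% were called higher in this comparison (21 of 9684) and 3 were called lower, with a median log2 change of -0.07. For each of the 4 genes the lowest double-positive pool was above the highest double-negative pool. The calls are those of adjusted p under 0.05 and an absolute natural-log change above 0.25.

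The Ccl5 call held without each pool in turn. The call of Ccl3 was lost without the Jα18-/- pool (adjusted p = 0.076, edgeR) or the CD1d-/- pool (adjusted p = 0.27), that of Ccl4 without the WT pool (adjusted p = 0.20), and that of Xcl1 without the WT pool (adjusted p = 0.27) or the Jα18-/- pool (adjusted p = 0.23), each with 2 pools left. The Ccl4 call was also lost with no term for the pool (adjusted p = 0.13), and the Xcl1 call with a gate at 1 UMI (adjusted p = 0.69). Without cells over the myeloid limit all 4 calls remained, with log2 fold changes of 4.87, 4.64, 2.38 and 1.97 for Ccl3, Ccl4, Ccl5 and Xcl1.

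Cd8a-positive cells without Ly49 were few, and 1 of the 3 sums rested on 3 WT cells. Ccl5 stood at 19376, 16905 and 22645 CPM in them and was called higher than in double-negative cells (log2 1.91 ± 0.21, adjusted p = 0.00019, edgeR, n = 3 pools). Xcl1 stood at 2055, 2286 and 1081 CPM and was called higher too (log2 1.77 ± 0.31, adjusted p = 0.011), although 1 cell held 71.5% of the WT and another 72.8% of the Jα18-/- UMIs. The Xcl1 call was lost without the WT pool (adjusted p = 0.11) or the Jα18-/- pool (adjusted p = 0.33). With a gate at 1 UMI the Xcl1 change turned to -0.22 on the log2 scale (adjusted p = 0.89) and the Ccl5 call was lost (adjusted p = 0.41). Ccl4 stood at 501, 135 and 1003 CPM and did not pass (log2 3.40 ± 0.71, adjusted p = 0.058), but passed without the CD1d-/- pool (adjusted p = 0.048), with DESeq2 (adjusted p = 0.0016), with no filter (adjusted p = 2.2e-10) and with a gate at 250 CPM (adjusted p = 0.036). With no filter the log2 change was nearly the same (3.41) but its SE was 0.46. The p-value with no filter is therefore not read as stronger evidence. A single cell held 86.7%, 81.8% and 53.9% of the Ccl4 UMIs in the WT, Jα18-/- and CD1d-/- sums. Ccl3 stood at 41.8, 1.76 and 19.4 CPM, from 5, 4 and 19 UMIs, with a log2 change of 1.45 ± 0.83 that did not pass (adjusted p = 0.41). In this comparison 0.134% of genes were called higher (13 of 9684) and the median change of all genes was -0.51.

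In cells with Ly49 and no Cd8a, edgeR called 1 of the 4 chemokines, Ccl5, higher than in double-negative cells, and this call was lost under 5 of 11 alternatives. Ccl5 stood at 8634, 11477 and 22267 CPM (log2 1.20 ± 0.20, adjusted p = 0.022, edgeR, n = 3 pools), and the call was lost without the WT pool (adjusted p = 0.060), with no term for the pool (adjusted p = 1.0), with DESeq2 (adjusted p = 0.60), with a gate at 1 UMI (adjusted p = 0.21) and with a gate at 250 CPM (adjusted p = 0.096). Of all genes 0.0516% were called higher (5 of 9684). Ccl3 stood at 86.9, 97.5 and 71.5 CPM, above the double-negative level in every pool, with a log2 change of 4.03 ± 0.83 that did not pass (adjusted p = 0.15) but passed with DESeq2 (adjusted p = 6.3e-05), with no filter (adjusted p = 0.0030) and with thinned cells (adjusted p = 0.00036). Ccl4 stood at 174, 246 and 173 CPM (2.45 ± 0.73, adjusted p = 1, unadjusted p = 0.0032) and Xcl1 at 994, 926 and 1506 CPM (0.98 ± 0.30, adjusted p = 1, unadjusted p = 0.0036), and neither passed, while Ccl4 passed with no filter (adjusted p = 0.00034) and Xcl1 with thinned cells (adjusted p = 0.011). The p-values with no filter have the limit given above for cells with Cd8a only. Among cells with Ly49 only, 1 cell held 51.6% of the WT Ccl3 UMIs, and 1 cell held 31.3% of the WT and 40.1% of the Jα18-/- Ccl4 UMIs. Without the highest cell of each gate and pool, Ccl3 stood at 43.4, 78.1 and 56.9 CPM and Ccl4 at 123, 149 and 163 CPM.

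**Figure D4:**
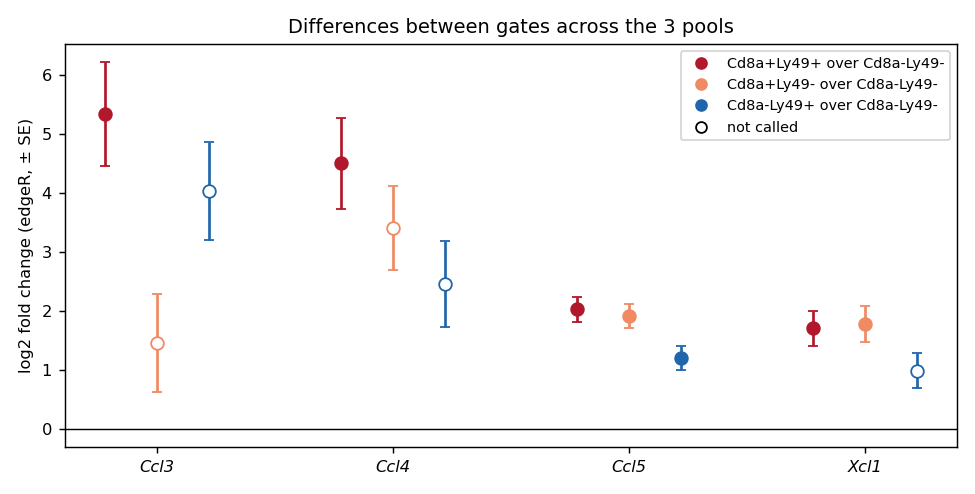
Log2 fold change (vertical axis, edgeR estimate with SE from the F statistic as bars, n = 3 pools) of each chemokine (horizontal axis) in 3 gates, shown by colour, over cells negative for Cd8a and Ly49. Filled points were called and open points were not, and the estimates run from 0.98 for Xcl1 in Cd8a-negative Ly49-positive cells to 5.33 for Ccl3 in double-positive cells.

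The gates also bear on the difference between the pools. Within double-positive cells the highest and the lowest pool differed 1.10-fold for Ccl5 and 1.29-fold for Xcl1, compared with 4.14-fold and 1.98-fold over all cells. Within the same gate Ccl3 differed 2.14-fold, with the CD1d-/- pool highest, and Ccl4 2.25-fold, with the WT pool highest. Both folds rest on few cells, as given above. Xcl1 was lowest in the CD1d-/- pool in this gate. In cells with Ly49 only the pools differed 1.36-fold for Ccl3, 1.42-fold for Ccl4, 2.58-fold for Ccl5 and 1.63-fold for Xcl1. The CD1d-/- pool was highest there for Ccl5 and Xcl1. In double-negative cells Ccl5 kept the order of the pools, with 3.40-fold between CD1d-/- and WT.

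When the 4 gates were given the same weight in each pool, the CD1d-/- pool stood above the WT pool 1.33-fold for Ccl3, 1.26-fold for Ccl4, 2.08-fold for Ccl5 and 1.21-fold for Xcl1. The Jα18-/- pool then stood at 1.13-fold, 0.704-fold, 1.24-fold and 0.975-fold of the WT pool. These weighted values are descriptions of 3 pools, and the WT value gives the same weight to the gate of 3 cells as the other pools give to theirs. The CD1d-/- value for Ccl4 also includes the double-negative gate, where 1 cell held 82.9% of the UMIs. Without that cell the gate stood at 31.7 in place of 181 CPM. The weighted values were not recomputed without such cells, so no order of the pools is read from them for Ccl4.

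Other transcripts marked cells with little Ccl3 and Ccl4. In Cd4-positive cells (124, 64 and 5 cells) Ccl3 stood at 2.37, 4.44 and 13.1 CPM and Ccl4 at 25.8, 6.65 and 13.1 CPM, with 1 UMI of each behind both CD1d-/- values. Ccl5 was at 2848, 3347 and 7703 CPM there and Xcl1 at 575, 637 and 811 CPM, and 1 of the 5 CD1d-/- cells held 93.4% and 98.4% of the UMIs behind the last value of each. In cells positive for S1pr1, a receptor for exit from tissue (22, 42 and 22 cells), Ccl3 stood at 1.54, 3.15 and 32.1 CPM and Ccl4 at 17.7, 14.5 and 110 CPM. Both were below the level of the whole pool each time. The Ccl3 values came from 2, 13 and 26 UMIs. In the CD1d-/- pool 1 cell held 76.9% of these Ccl3 UMIs, and 1 cell held 89.9% of the Ccl4 UMIs. The WT Ccl4 value came from 23 UMIs, of which 1 cell held 60.9%. In S1pr1-positive cells Ccl5 stood at 7586, 12447 and 20976 CPM, above the level of its whole pool each time. Xcl1 stood at 304, 378 and 695 CPM in the same cells, below the level of its whole pool each time.

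Ccl3 and Ccl4, neighbours on chromosome 11, were found in the same cells more often than the product of their shares of the whole pool gives. Among cells with a Ccl3 UMI, Ccl4 was found in 39 of 94 WT cells (41.5%), 149 of 217 Jα18-/- cells (68.7%) and 89 of 117 CD1d-/- cells (76.1%). Among cells without a Ccl3 UMI it was found in 18.5%, 41.5% and 47.4%. Deeper cells yield both genes more readily, so the comparison was repeated at 10000 UMIs per cell, where Ccl4 was found in 44.1%, 51.7% and 66.7% of Ccl3 cells and 9.82%, 18.2% and 45.1% of the others.

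At a level of at least 100 CPM and 2 UMIs, Ccl4 was found in 12 of 17 high Ccl3 cells of the WT pool (70.6%), 30 of 54 of the Jα18-/- pool (55.6%) and 39 of 56 of the CD1d-/- pool (69.6%). These cells were 26.1%, 25.9% and 28.7% of the high Ccl4 cells. The number of cells high for both was 9.56, 3.47 and 1.98 times the product of the shares in the 3 pools. Most high Ccl3 cells of each pool thus also had high Ccl4, and most high Ccl4 cells did not have high Ccl3. The products above are over whole pools, while both genes differ between gates. In double-positive cells Ccl4 was high in 6 of 8, 16 of 24 and 23 of 32 high Ccl3 cells. It was high in 21 of 29, 53 of 91 and 69 of 119 cells of that gate. With Ly49 only, these were 6 of 7, 14 of 29 and 13 of 21, against 14 of 93, 52 of 327 and 45 of 157. The part of the gates in the excess was not tested.

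**Figure D5:**
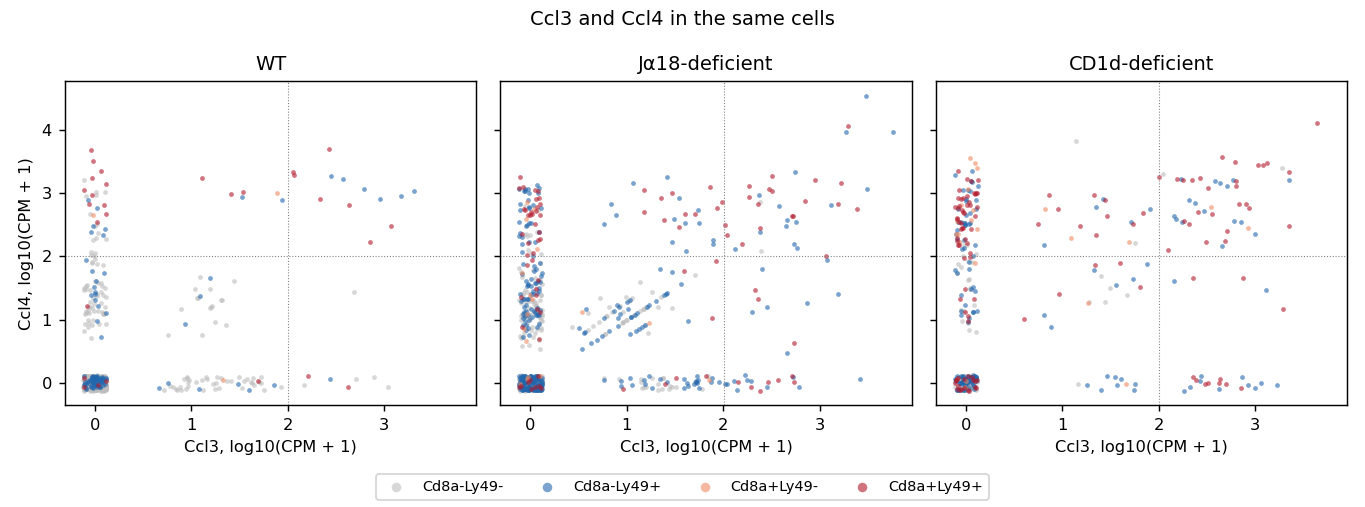
Ccl3 (horizontal axis) against Ccl4 (vertical axis) in single cells, as log10(CPM + 1) with cells at 0 spread to be visible, coloured by gate of Cd8a and Ly49. Dotted lines mark 100 CPM; 12, 30 and 39 cells of the WT, Jα18-/- and CD1d-/- pools have at least 100 CPM and 2 UMIs of both genes, and the diagonal runs of points at low levels are cells with equal numbers of UMIs.

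Cells high for both genes lay almost wholly in the gates with Ly49. They numbered 6, 16 and 23 among double-positive cells, 6, 14 and 13 among cells with Ly49 only, 0, 0 and 2 among cells with Cd8a only, and 0, 0 and 1 among double-negative cells. At 2 UMIs and 100 CPM of each gene, all 4 chemokines were found together in 12 WT cells (1.93%), 29 Jα18-/- cells (4%) and 39 CD1d-/- cells (10.1%). At 1 UMI of each, which depends more on depth, they were found together in 39 (6.26%), 146 (20.1%) and 88 cells (22.7%). In cells thinned to 10000 UMIs the shares at 1 UMI were 2.87%, 6.80% and 13.2%. The most common state in the WT pool at 1 UMI was 2 of the 4 genes, in 58.7% of cells, and 350 of those 366 cells had Ccl5 with Xcl1. Only 1 cell, of the CD1d-/- pool, had no UMI of any of the 4.

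High Ccl3 and Ccl4 cells were then described, with no test, since they are defined by the genes themselves and the description was chosen after values had been seen. Ly49 was positive in 88.2%, 98.1% and 94.6% of high Ccl3 cells, against 17.7%, 54.4% and 67.4% of the other cells. It was positive in 76.1%, 90.5% and 83.8% of high Ccl4 cells, against 15.1%, 51.4% and 64.5% of the other cells. Between 50 and 200 CPM of the gene lay 3, 18 and 9 cells for Ccl3 and 5, 25 and 29 for Ccl4.

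Gzma and Gzmb, the granzymes of cytotoxic granules, were higher in the high Ccl3 cells of every pool. Gzma was at 8695 against 272 CPM in the WT, 5261 against 1016 in the Jα18-/- and 5958 against 2980 in the CD1d-/- pool. Il4, a cytokine of type I NKT cells, was at 3.20, 9.56 and 1.24 CPM in high Ccl3 cells and at 155, 80.0 and 39.6 CPM in the others. The values in high Ccl3 cells came from 4, 38 and 2 UMIs. In the CD1d-/- pool 1 cell held 52.9% of all Il4 UMIs. Of 15 immediate early genes of cell activation with enough UMIs, 4 were higher in high Ccl3 cells of all 3 pools (26.7%, against 8.19% of 7314 genes) and 2 in high Ccl4 cells (13.3%, against 11.6%). Of 8 effector genes, 4 were higher in all 3 pools for each gene.

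The genes most like each chemokine across cells were taken by the lowest of the 3 pools' Pearson correlations of log counts, among 4895 genes found in at least 10% of cells of each pool. Ccl4 was the gene most like Ccl3 (0.34), followed by Tyrobp (0.33) and Fcer1g (0.31), the latter 2 encoding signalling adaptors of activating NK receptors. Ccl4 was most like Tyrobp (0.44), Cd7 (0.43) and Fcer1g (0.41). Ccl5 was most like Fcer1g (0.46), Cd7 (0.46) and Tyrobp (0.42), and Xcl1 most like Ccl4 (0.33), Fcer1g (0.30) and Tyrobp (0.29). The correlations are weak to moderate, cells of a pool share its libraries and differ in depth, and the order changed with thinning. In thinned cells Ccl4 had rank 4 for Ccl3 (0.28), behind Tyrobp, Fcer1g and Cd7, and rank 3 for Xcl1 (0.26), which was most like Tyrobp (0.32). Gzmb replaced Fcer1g among the 3 genes most like Ccl4.

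Tyrobp, Fcer1g and Cd7 were themselves called higher in double-positive cells, with log2 fold changes of 3.995 ± 0.43, 3.61 ± 0.37 and 3.498 ± 0.45 (edgeR adjusted p = 3.9e-05, 3.8e-05 and 0.00035, n = 3 pools). Gzma (4.31 ± 0.51, adjusted p = 0.00015) and Gzmb (3.15 ± 0.33, adjusted p = 3.8e-05) were the 2 of 10 effector genes tested that were called in this comparison, and none was called lower. Of 17 immediate early genes tested, 0 were called by edgeR, and 2 had an unadjusted p under 0.05.

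Among 38 chemokine ligands listed for comparison, 37 were rows of the matrix and 19 of these had no UMI in any pool. At least 10 CPM in a pool was reached by 8, which were the 4 genes of interest with Ccl6, Ccl9, Ccl25 and Cxcl10. The highest of the other 4, Cxcl10, an interferon-induced ligand of Cxcr3, stood at 126 CPM in the WT pool, where 87.2% of its UMIs came from 1 cell. Ccl6, Ccl9 and Ccl25 reached 14.2, 23.3 and 13.1 CPM in the CD1d-/- pool, where 1 cell held 83.2% of the Ccl25 UMIs. Of 10 ligands tested between gates, those called higher were all among the 4: 4 in double-positive cells, 2 in cells with Cd8a only and 1 in cells with Ly49 only.

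Receptors of these chemokines were also counted in the same cells. Xcr1, the receptor of Xcl1, stood at 29.0, 34.0 and 42.0 CPM. In the CD1d-/- pool 63.1% of the Xcr1 UMIs came from 1 cell. Ccr1 stood at 0.264, 0.132 and 2.27 CPM, Ccr3 at 0, 0.0992 and 0.206 CPM, and the scavenger receptors Ackr1 and Ackr2 had no UMI. Xcr1 did not pass the edgeR test between any gate and the double-negative cells.

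Because the 4 genes were higher together in double-positive cells, the 250 bases before the start of transcription were searched for motifs of factors known in NK and CD8 T cells. The RefSeq promoter table (build GRCm38.p6) matched 2 of the 4 genes, Ccl3 (chr11:83649379-83649628, minus strand) and Xcl1 (chr1:164935523-164935772, minus strand). The sequences are given 5′ to 3′ on the strand of the gene with motif matches in capitals.

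Ccl3 promoter: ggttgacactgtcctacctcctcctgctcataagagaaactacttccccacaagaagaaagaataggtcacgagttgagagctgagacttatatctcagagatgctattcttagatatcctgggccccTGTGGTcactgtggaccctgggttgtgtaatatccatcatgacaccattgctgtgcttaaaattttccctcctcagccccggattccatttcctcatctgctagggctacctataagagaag
Xcl1 promoter: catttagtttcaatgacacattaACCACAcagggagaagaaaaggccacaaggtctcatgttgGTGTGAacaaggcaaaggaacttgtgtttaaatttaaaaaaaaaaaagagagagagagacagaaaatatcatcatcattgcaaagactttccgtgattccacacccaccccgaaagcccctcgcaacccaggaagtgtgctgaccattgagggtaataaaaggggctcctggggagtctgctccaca

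The RUNX motif TGTGGT, on either strand, was found once in each, and it is present in 14.05% of 32851 promoters of that length. The T-box motif GTGTGA was found once in the Xcl1 window and not in that of Ccl3 (12.3% of promoters). The AP-1 motif TGANTCA was found in neither (6.75% of promoters). These matches describe letters in a window and no binding was measured.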

How the data were processed

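The deposited table holds UMI counts per gene and cell for 1735 cells. The authors picked NK1.1+CD3e+ liver cells by hand after sorting, trimmed reads with cutadapt 1.15, aligned them to mm9 with TopHat2 2.0.12, counted genes with HTSeq 0.10.0 and removed duplicates by UMI, per the labels and the study's methods. The filter on UMIs that the methods state (10000 to 600000, with over 500 genes) leaves 523 WT, 632 Jα18-/- and 227 CD1d-/- cells, but shallower cells are in the table and were kept. Cells held 789 to 598221 UMIs. Cells had been picked singly, no doublet caller was run, and cells of the highest UMI counts may include doublets. The cell names carry no library, so barcodes shared between libraries could not be counted and nothing in the table separates mice.

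Counts were summed per pool with exact Poisson intervals, and shares were given exact Clopper-Pearson intervals, both at the 95% level. Cells were grouped by Cd8a and by the summed counts of Klra1, Klra3 to Klra10 (near-identical copies, so single Klra genes are uncertain), and sums of at least 3 cells were compared with edgeR 4.0.16 (TMM, filterByExpr, gate and pool as terms, gate genes left out). All gates were in 1 fit with a shared estimate of the spread, which also draws on other genes. The pools differ in genotype, so p-values carry the spread of all gate sums over 3 genotypes and not that between mice. The sum of 3 WT cells is part of that spread. Alternatives were DESeq2 1.42.0, library size alone, no filter, no pool term, other gates, thinned cells, cells without myeloid transcripts, and leaving out each pool. The members and the gene lists were chosen with earlier results of these data known. Beyond the 4 chemokines, genes named were ligands with at least 10 CPM in a pool, listed receptors (1 result is not reported here) and the 3 genes most like each member, while Gzma, Gzmb, Il4 and the marker genes given were chosen after their values were seen. Scripts used Python 3.11.15, numpy 2.4.6, pandas 2.3.3, scipy 1.17.1, Biopython 1.88, matplotlib 3.10.9 and R 4.3.3.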

Additional observations from a re-analysis of the deposited data

Results flagged for a closer look

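Ratios between gates had unlike signs in different pools for 2 of the chemokines. The difference between pools was not tested, since each pool gives 1 value, and the gates behind both negative ratios had overlapping counting intervals, so that no opposite direction is shown. The log2 ratio of Ccl3 between Cd8a-positive cells without Ly49 and double-negative cells was 2.67 in the WT pool, -0.85 in the Jα18-/- pool and 1.35 in the CD1d-/- pool, from 5, 4 and 19 UMIs in the Cd8a-positive cells. The log2 ratio of Ccl4 between Ly49-positive cells without Cd8a and double-negative cells was 4.16 in the WT pool, 3.76 in the Jα18-/- pool and -0.063 in the CD1d-/- pool. In the CD1d-/- pool 82.9% of the Ccl4 UMIs of the double-negative cells came from 1 cell.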

How the results depend on the processing

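The alternatives were first counted for ratios between pools, gate comparisons and co-detection of Ccl3 with Ccl4. Of these recomputed values, 136 kept their direction and their side of the threshold or stayed within counting error. A further 50 moved, 9 newly passed, 15 no longer passed and 1 reversed. Of the other recomputed values, mostly shares of cells with a UMI, 30 moved and 10 did not. The order of the pools was the same for all 4 chemokines under each setting for the summed level. The log2 ratios of Jα18-/- over WT and of CD1d-/- over WT were 1.59 (Ccl3, first pair), 1.16 and 2.06 (Ccl4), 0.98 and 1.93 (Ccl5), and 0.53 and 1.24 (Xcl1) when cells were weighted equally. They were 0.87 (Ccl4, first pair), 0.999 and 2.02 (Ccl5), and 0.38 and 0.95 (Xcl1) over a total without the 4 genes and the 50 highest genes. Without the highest cell of each pool they were 1.55 and 2.14 (Ccl3), 0.74 and 2.08 (Ccl4), 1.09 and 2.08 (Ccl5), and 0.37 (Xcl1, first pair). Without cells over the myeloid limit, a setting added after seeing the data like the one before it, they were 1.09 and 1.55 (Ccl3), 0.59 and 1.64 (Ccl4), 1.09 and 2.33 (Ccl5), and 1.34 (Xcl1, second pair). The share of Ccl3 cells with Ccl4 was 62.1% in the WT pool at 2 UMIs, and 51.7% and 66.7% in the Jα18-/- and CD1d-/- pools after thinning.

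For Cd8a-positive Ly49-positive cells, leaving out 1 pool gave edgeR log2 changes of 5.01 to 5.64 for Ccl3, 3.41 to 5.91 for Ccl4, 1.55 to 2.47 for Ccl5, 1.53 to 2.02 for Xcl1. The call of Ccl4 was lost with no pool term (3.65, adjusted p = 0.13) and that of Xcl1 with a gate at 1 UMI (0.93, adjusted p = 0.69). Over all alternatives the adjusted p ran from 2.6e-10 to 0.27 for Ccl3, 4.8e-16 to 0.2 for Ccl4, 2.0e-79 to 0.025 for Ccl5, 1.5e-06 to 0.69 for Xcl1. The lowest values for Ccl4, Ccl5 and Xcl1 came with no filter. For Ccl5 the SE was then 0.10 in place of 0.21, at nearly the same log2 change. Such low p-values with no filter are not read as stronger evidence, here or below. For Cd8a-positive cells without Ly49, leaving out 1 pool gave 0.98 to 1.96 for Ccl3, 2.86 to 4.25 for Ccl4, 1.71 to 2.20 for Ccl5, 1.31 to 2.18 for Xcl1. Ccl4 passed with no filter (3.41), with DESeq2 (3.496, adjusted p = 0.0016) and with a gate at 250 CPM (3.77, adjusted p = 0.036). With a gate at 1 UMI the Ccl5 call was lost (0.98) and Xcl1 changed sign (-0.22, adjusted p = 0.89). The adjusted p ran from 0.2 to 0.91 for Ccl3, 2.2e-10 to 0.47 for Ccl4, 1.1e-73 to 0.41 for Ccl5, 3.8e-07 to 0.89 for Xcl1. For Ly49-positive cells without Cd8a, leaving out 1 pool gave 3.47 to 4.39 for Ccl3, 1.44 to 3.87 for Ccl4, 1.07 to 1.31 for Ccl5, 0.95 to 1.02 for Xcl1. Ccl3 passed with no filter (4.04), DESeq2 (4.06) and thinning (3.99), Ccl4 with no filter (2.45) and Xcl1 with thinning (0.90, adjusted p = 0.011). Ccl5 was lost with no pool term (1.153), DESeq2 (1.22, adjusted p = 0.60), a gate at 1 UMI (1.21) and a gate at 250 CPM (1.16). The adjusted p ran from 6.3e-05 to 1 for Ccl3, 3.4e-04 to 1 for Ccl4, 9.3e-30 to 1 for Ccl5, 0.011 to 1 for Xcl1. The causes were not tested.

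The counts of genes called in the 3 comparisons, in the same order, were 58, 52 and 14 with no filter, 14, 9 and 0 with no pool term (edgeR, 162 genes at an unadjusted p under 0.05 behind the 0) and 141, 711 and 20 with DESeq2. They were 90 and 24 after thinning and 40 and 10 without cells over the myeloid limit in the first and the last comparison. A gate at 1 UMI gave 0 calls in the second comparison by edgeR, with 880 genes at an unadjusted p under 0.05, and a gate at 250 CPM gave 2 in the last. Leaving out 1 pool gave 7 to 13 calls in the first, 9 to 10 calls in the second, 1 to 5 calls in the last comparison. The gates were compared within pools by the pool term, and the values without it are given above. No paired analysis was possible because the cell names carry no replicate number, which leaves the numbers of the libraries without use.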
